A study of Glycine max with 12 samples.

Results

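Phenylalanine ammonia-lyase (PAL), cinnamate 4-hydroxylase (C4H) and 4-coumarate-CoA ligase (4CL) catalyze the entry steps of phenylpropanoid metabolism, and their transcripts were followed in leaves of 2 soybean cultivars with and without soybean aphids. The members are all soybean probe sets that the array's annotation assigns to a single gene named PAL2.1, C4H, 4CL, 4CL1, 4CL2, 4CL3 or 4CL4. They comprise 12 of the 37593 soybean probe sets on the Affymetrix Soybean Genome Array and stand for 7 of the 6029 genes that have a probe set of their own in that annotation. Each probe set combines several short probes designed against the same transcript. Those whose names end in _s_at or _a_at can also bind transcripts of near-identical or related sequences, so probe sets of 1 gene are not independent measurements. The rule for membership uses gene symbols and no measured value.

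The 4 groups were infested R plants (RA), uninfested R plants (RC), infested S plants (SA) and uninfested S plants (SC). R is the aphid-resistant line LD05-16060, which carries Rag1, a soybean locus for aphid resistance, and S is the aphid-susceptible line SD01-76R. Each infested plant received 30 aphids on its V3 leaf, and the third trifoliate leaves were taken after 21 days from infested plants and from uninfested plants handled alike under nets. Each group has 3 arrays, and each array holds RNA pooled from 2 plants.

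Infested plants stood on one side of the growth chamber and uninfested plants on the other, so the effects of aphids and of position cannot be told apart. Infested R and infested S plants carried different aphid loads at harvest, so cultivar and aphid load cannot be told apart when RA is set against SA. In whole leaves, fewer cells of a type and less RNA per cell cannot be told apart either.

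PAL removes the amino group of phenylalanine and releases cinnamate, C4H is a cytochrome P450 that hydroxylates cinnamate to p-coumarate, and 4CL joins p-coumarate to coenzyme A. The resulting p-coumaroyl-CoA feeds chalcone synthase, at the head of flavonoid and isoflavonoid synthesis, and also the route to lignin and other phenolics. In legumes these routes supply isoflavones and the pterocarpan phytoalexins, and plants commonly carry small families of PAL and 4CL genes whose members can differ in where and when they are used.

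Values are log2 intensities, quantile normalized over the soybean probe sets, with errors given as SD of 3 arrays. A difference of 1 is a 2-fold difference. The 12 arrays correlated with each other at 0.907 to 0.983 over all soybean probe sets, and no pair held identical values. Markers of photosynthetic leaf tissue (6 genes, 16 probe sets) had a median level of 9.72 over all arrays, with 3 probe sets at or under the control probe sets. Of 20 probe sets for seed proteins 16 were at or under the controls, but the brightest had a mean level of 10.36. The 4 for nodule proteins lay between 5.41 and 6.19. No leaf, seed or nodule marker passed the test in any comparison. The median of the array's control probe sets was 5.42 in RA, 5.41 in RC, 5.39 in SA and 5.39 in SC. It serves here as a reference for low signal and was not shown to be the level without target.

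All members lay above that control level in every group, by 0.89 for a probe set of 4CL2 in RA to 6.12 for a probe set of PAL2.1 in SA. The members differed most between the infested cultivars, where the gene named 4CL was higher in RA than in SA and 10 of the other 11 probe sets had a lower mean in RA, with the widest gap for 4CL2. How many passed the test depended on whether the replicate number entered the fit. Without it, 4CL in RA minus SA was the only call in 5 comparisons. With the replicate number as a block, 4CL and 6 lower probe sets passed in RA minus SA, and both 4CL2 probe sets passed, higher, in SA minus SC.

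**Figure D1:**
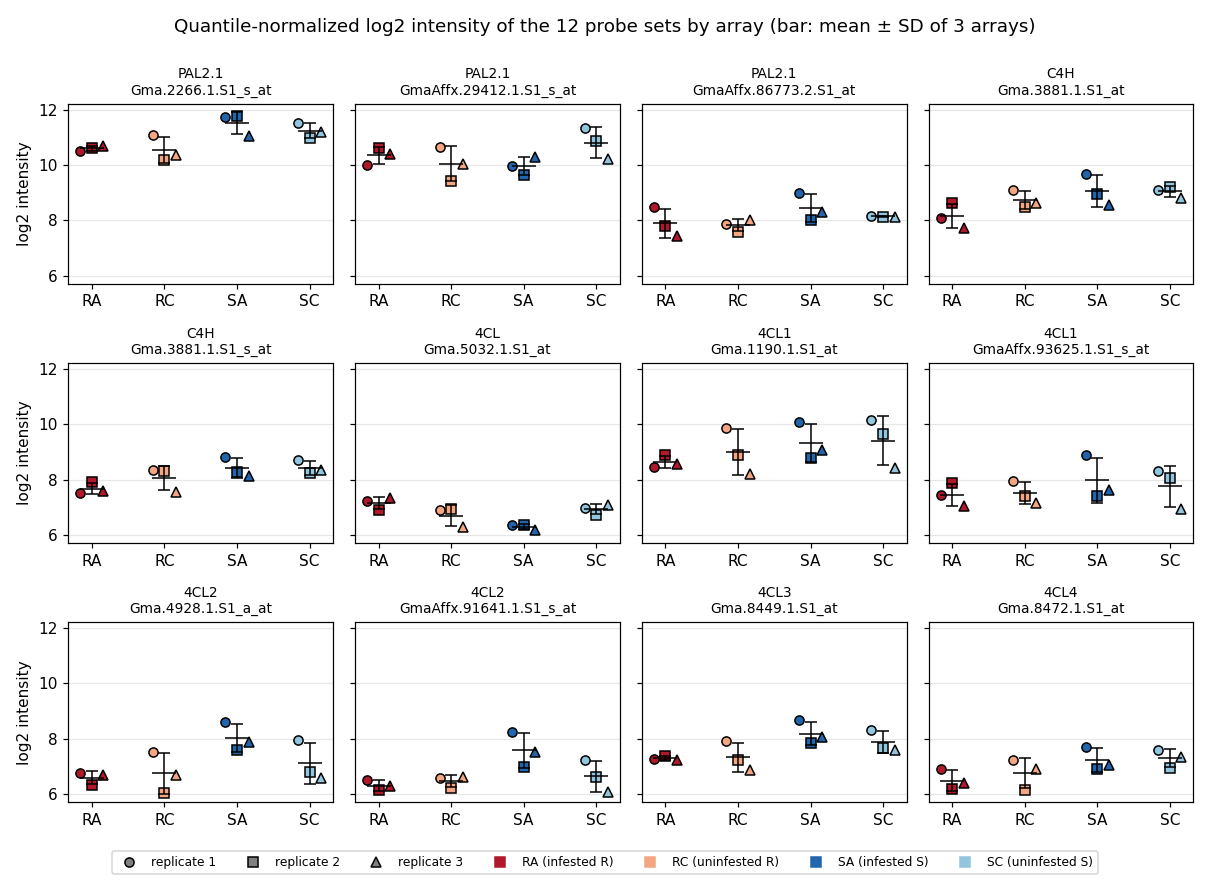
Quantile-normalized log2 intensity (y axis) of each of the 12 probe sets in RA, RC, SA and SC (x axis). Each symbol is 1 array, its shape gives the replicate number, and bars give the mean and SD of 3 arrays. For 4CL the 3 SA arrays, at 6.20 to 6.36, lie below the 3 RA arrays, at 6.91 to 7.35, while for both 4CL2 probe sets all SA arrays lie above all RA arrays.

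PAL2.1 was measured by 3 probe sets that did not move alike. For Gma.2266.1.S1_s_at, the brightest member, the arrays read 10.52, 10.61 and 10.68 in RA, 11.08, 10.17 and 10.35 in RC, 11.73, 11.77 and 11.05 in SA, and 11.53, 10.99 and 11.18 in SC. The means were 10.60 ± 0.08 in RA, 10.53 ± 0.48 in RC, 11.52 ± 0.40 in SA and 11.23 ± 0.27 in SC, so its mean level exceeded that of 96.3% of soybean probe sets. Its RA arrays lay below all SA and all SC arrays, whereas the RC arrays overlapped those of every other group.

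For the second PAL2.1 probe set, GmaAffx.29412.1.S1_s_at, the arrays read 10.02, 10.63 and 10.41 in RA, 10.67, 9.41 and 10.04 in RC, 9.98, 9.63 and 10.28 in SA, and 11.32, 10.87 and 10.23 in SC. Here SC had the highest mean, 10.81 ± 0.55, and SA the lowest, 9.96 ± 0.32, and the arrays of all groups overlapped. The third, GmaAffx.86773.2.S1_at, was dimmer. Its means were 7.89 ± 0.53 in RA, 7.83 ± 0.22 in RC, 8.44 ± 0.51 in SA and 8.14 ± 0.03 in SC, and its 3 SC arrays lay within 8.13 to 8.17. Over the 12 arrays the first probe set correlated with the other two at 0.222 and 0.53, and those with each other at -0.02. These are descriptions over 12 arrays, which share 4 groups.

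C4H was measured by 2 probe sets built on the same target. Gma.3881.1.S1_at read 8.10, 8.62 and 7.74 in RA, 9.11, 8.50 and 8.61 in RC, 9.68, 8.96 and 8.54 in SA, and 9.11, 9.21 and 8.81 in SC. Gma.3881.1.S1_s_at read 7.51, 7.90 and 7.59 in RA, 8.35, 8.30 and 7.57 in RC, 8.81, 8.27 and 8.14 in SA, and 8.70, 8.23 and 8.33 in SC. Both had their lowest mean in RA, 8.15 ± 0.44 and 7.67 ± 0.20, and nearly the same means in SA (9.06 ± 0.57 and 8.41 ± 0.36) and SC (9.04 ± 0.21 and 8.42 ± 0.25). They correlated at 0.831 over the 12 arrays.

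The 4CL gene on Gma.5032.1.S1_at was among the dimmer members, with a mean level above 40.7% of soybean probe sets and 0.91 to 1.74 above the control level by group. Its arrays read 7.22, 6.91 and 7.35 in RA, 6.91, 6.93 and 6.27 in RC, 6.36, 6.36 and 6.20 in SA, and 6.97, 6.73 and 7.08 in SC. The SA arrays were the lowest and lay close together, at 6.30 ± 0.09, against 7.16 ± 0.22 in RA, 6.70 ± 0.37 in RC and 6.93 ± 0.18 in SC. All 3 SA arrays were below every RA and every SC array, and 1 RC array fell within the SA range. It was the only member with its highest mean in RA.

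4CL1 was measured by Gma.1190.1.S1_at and GmaAffx.93625.1.S1_s_at. The first read 8.45, 8.88 and 8.57 in RA, 9.88, 8.90 and 8.22 in RC, 10.08, 8.80 and 9.07 in SA, and 10.15, 9.65 and 8.43 in SC. Arrays of 1 group thus differed by up to 1.72, and all 4 groups overlapped. The second gave means of 7.45 ± 0.41 in RA, 7.50 ± 0.40 in RC, 7.97 ± 0.80 in SA and 7.76 ± 0.74 in SC. The pair correlated at 0.897 over the 12 arrays and at 0.916 within groups.

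4CL2 had the widest gap between groups of any member. Gma.4928.1.S1_a_at read 6.78, 6.34 and 6.68 in RA, 7.53, 6.04 and 6.70 in RC, 8.60, 7.59 and 7.90 in SA, and 7.97, 6.80 and 6.57 in SC. GmaAffx.91641.1.S1_s_at read 6.50, 6.14 and 6.30 in RA, 6.60, 6.23 and 6.62 in RC, 8.26, 6.99 and 7.52 in SA, and 7.22, 6.64 and 6.08 in SC. On both probe sets the SA mean was the highest (8.03 ± 0.52 and 7.59 ± 0.64) and the RA mean the lowest (6.60 ± 0.23 and 6.31 ± 0.18), with SC (7.11 ± 0.75 and 6.65 ± 0.57) overlapping SA. The pair correlated at 0.925 over the 12 arrays and at 0.83 within groups.

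4CL3 (Gma.8449.1.S1_at) read 7.29, 7.38 and 7.25 in RA, 7.91, 7.23 and 6.88 in RC, 8.67, 7.85 and 8.06 in SA, and 8.33, 7.69 and 7.60 in SC. The RA arrays lay below all arrays of SA and SC, and the RC arrays spread on both sides of them. 4CL4 (Gma.8472.1.S1_at) read 6.90, 6.18 and 6.39 in RA, 7.23, 6.16 and 6.91 in RC, 7.72, 6.91 and 7.05 in SA, and 7.61, 6.96 and 7.35 in SC. Its RA arrays also lay below all SA and SC arrays, though the highest RA array and the lowest SA array differed by less than the spread within either group.

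Ordered by mean level, SA stood highest for 7 of the 12 probe sets, SC for 4, RA for 1 and RC for none. RA stood lowest for 8, SA for 2, RC for 2 and SC for none. Neighbours in these orders rarely differed beyond their spread. The arrays of neighbouring groups overlapped in 35 of 36 cases, the exception being RA below SC by 0.63 for the brightest PAL2.1 probe set. In 29 of the 36 the gap was within the larger SD of the pair. Neighbours are the closest groups by construction, and the same shares over all soybean probe sets are not given here. RA and SA, which were not neighbours in any of these orders, are compared below.

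Within groups, the array of replicate 1 read highest for 9 of the 12 probe sets in RC, 9 in SA and 10 in SC, against 4 in RA. It read lowest for 4 probe sets in RA and for none in the other 3 groups. Most members therefore read highest on the same array within 3 of the 4 groups, but 4CL did not. Within groups the median correlation was 0.12 for pairs with 4CL and 0.576 for pairs without it. The same share over all soybean probe sets is not given here, so this is no trait particular to the members. What replicate 1 shared was not tested.

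**Figure D2:**
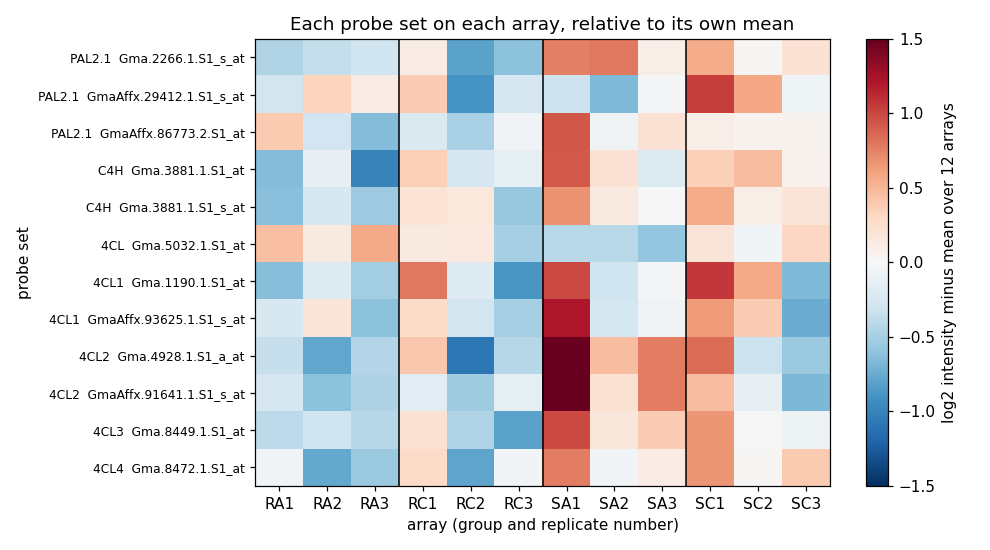
Each of the 12 probe sets (rows) on each of the 12 arrays (columns, grouped as RA, RC, SA and SC), coloured by its log2 intensity minus its own mean over the 12 arrays. Most probe sets are above their mean on RC1, SA1 and SC1, and 4CL is below its mean on all 3 SA arrays and above it on all 3 RA arrays.

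Over the 12 arrays the median correlation of the 66 pairs of member probe sets was 0.604. Among the 55 pairs without the gene 4CL it was 0.668, with 1 pair below 0. Among the 11 pairs with it the median was -0.32, and 10 pairs were below 0. The pairs share the same arrays and, in part, the same genes, so these values describe the 12 arrays only.

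The susceptible comparison, SA minus SC, asks which transcripts differ after 21 days of infestation in S plants. No member passed the test (adjusted p under 0.05, limma with Benjamini-Hochberg adjustment over all 37593 probe sets), against 3.42% of all soybean probe sets. Before adjustment 4 of 12 had p under 0.05, 2 higher and 2 lower, against 16.6% of all. The median difference of the members was 0.11, with 7 above and 5 below 0, and that of all soybean probe sets was -0.04.

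In S plants the 2 higher values were those of 4CL2. The difference was 0.94 (SE 0.32, a fold of 1.92, limma adjusted p = 0.15) on its _s_at probe set and 0.91 (SE 0.41, a fold of 1.89, limma adjusted p = 0.29) on its _a_at probe set, with overlapping arrays on both. In the fit that treats the replicate number as a block, both passed (limma adjusted p = 0.036 and 0.034), and 4CL2 was the only member gene called, against 4.34% of all probe sets called higher in that fit. Without SA replicate 2 the _s_at probe set also passed in the fit without a block, with a difference of 1.24 (limma adjusted p = 0.045).

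The 2 lower values in S plants were those of 4CL and of 1 PAL2.1 probe set. 4CL had a difference of -0.63 (SE 0.19, limma adjusted p = 0.11), and its SA and SC arrays did not overlap, which held in that direction for 10.8% of all probe sets. PAL2.1 on its second _s_at probe set had -0.85 (SE 0.33, limma adjusted p = 0.22), whereas the other two PAL2.1 probe sets had 0.28 and 0.29. C4H showed 0.02 (95% interval -0.62 to 0.66) and -0.01 (95% interval -0.54 to 0.51). The remaining values were -0.09 and 0.21 for 4CL1, 0.32 for 4CL3 and -0.08 for 4CL4. The 95% intervals of the 12 differences reached 0.42 to 1.05 to either side of the estimates. A 2-fold difference in 1 direction lay within those of 4CL, of both 4CL1 and both 4CL2 probe sets, and of the second PAL2.1 _s_at probe set. It lay outside the intervals of the other members.

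The resistant comparison, RA minus RC, puts the same question to R plants. No member and no other soybean probe set passed the test (0% of all), and 2.06% of all had p under 0.05 before adjustment. Among the members 1 did, 4CL, at 0.46 (SE 0.19, limma adjusted p = 1). The lowest difference was -0.59 for C4H on its _at probe set (SE 0.29, limma adjusted p = 1). In this comparison no member had groups that did not overlap, against 6.25% of all probe sets, and the median of the members was -0.10 beside -0.01 for all.

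Whether S and R plants responded unequally was tested as an interaction, SA minus SC less RA minus RC. No member passed, against 0.00798% of all soybean probe sets, and 3 had p under 0.05 before adjustment, against 6.92%. For 4CL the SA mean lay below the SC mean and the RA mean above the RC mean, giving an interaction of -1.08 (SE 0.27, limma adjusted p = 0.31). PAL2.1 on its second _s_at probe set had -1.16 (SE 0.47, limma adjusted p = 0.65), and 4CL2 on its _s_at probe set had 1.11 (SE 0.45, limma adjusted p = 0.64). The other 9 lay above 0, and the median of the members was 0.27 beside -0.03 for all. An unequal response of the cultivars was thus not shown for any of these genes, and the intervals, which reached 0.59 to 1.48 to either side, leave room for one.

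The genetic comparison, RC minus SC, sets the cultivars side by side without aphids. No member passed, against 0.0745% of all soybean probe sets. All 12 differences were below 0, between -0.77 and -0.16, with a median of -0.35 beside 0.01 for all. They share arrays and are not 12 independent values. The lowest were both _s_at probe sets of PAL2.1, at -0.77 (SE 0.33, limma adjusted p = 1) and -0.70 (SE 0.25, limma adjusted p = 1). These 2 were the only members with p under 0.05 before adjustment, against 1.52% of all in that direction. The third PAL2.1 probe set differed by -0.32, and its RC arrays (7.86, 7.59 and 8.02) lay below its SC arrays (8.17, 8.13 and 8.13). It was the only member whose RC and SC arrays did not overlap, against 3.56% of all probe sets in that direction.

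Between infested cultivars, RA minus SA, 1 of the 12 members passed the test, against 3% of all soybean probe sets (0.702% higher and 2.29% lower). 4CL was higher in RA by 0.86 (SE 0.19, 95% interval 0.44 to 1.27, a fold of 1.81, limma adjusted p = 0.034), in 3 of 3 arrays against every SA array. The call was lost on the values as deposited (a difference of 0.96, limma adjusted p = 0.25). It was also lost when any 1 of the 3 SA arrays was left out (limma adjusted p = 0.12, just over 0.05, and 0.099), and without RA replicate 1 or RA replicate 3 (0.13 for each). RA minus SA shares its SA arrays with SA minus SC and its RA arrays with RA minus RC, so for each member these values are not independent.

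The other 4CL genes pointed the other way in RA minus SA, and none passed the test. 4CL2 had -1.43 (SE 0.41, a fold of 2.69 lower, limma adjusted p = 0.093) on its _a_at probe set and -1.28 (SE 0.32, a fold of 2.42 lower, limma adjusted p = 0.054) on its _s_at probe set. 4CL3 had -0.89 (SE 0.28, limma adjusted p = 0.13), 4CL4 had -0.74 (SE 0.30, limma adjusted p = 0.26), and 4CL1 had -0.68 and -0.52 (SE 0.48 and 0.42, limma adjusted p = 0.58 and 0.65). The 4CL2, 4CL3 and 4CL4 arrays of RA and SA did not overlap, and those of 4CL1 did.

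At the 2 earlier steps, C4H had -0.91 (SE 0.29) and -0.74 (SE 0.24) in RA minus SA, each with limma adjusted p = 0.14. PAL2.1 had -0.91 on its brighter _s_at probe set (SE 0.25, limma adjusted p = 0.079), -0.54 on its _at probe set (SE 0.28, adjusted p = 0.38) and 0.39 on its second _s_at probe set (SE 0.33, adjusted p = 0.67). The PAL2.1 probe sets therefore differed in sign, and none of the PAL or C4H values passed the test.

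Over the 12 members in RA minus SA, 1 was higher and 7 lower at p under 0.05 before adjustment, against 7.68% and 7.62% of all probe sets. Arrays did not overlap for 1 higher and 6 lower members, those 6 from 5 genes, against 9.55% and 8.36% of all. The median difference of the members was -0.74 beside 0.04 for all soybean probe sets, whose middle part, between the quartiles, lay between -0.13 and 0.21.

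In the fit with the replicate block, 7 members passed the test in RA minus SA. 4CL was higher (limma adjusted p = 0.025, against 1.88% of all probe sets called higher in that fit). Lower in RA were 6 probe sets of 5 genes, against 4.46% of all. They were 4CL2 (adjusted p = 0.0035 on its _a_at and 0.0082 on its _s_at probe set), 4CL4 (0.013), 4CL3 (0.02), PAL2.1 on its brighter _s_at probe set (0.032) and C4H on its _at probe set (0.041). The second C4H probe set stayed at 0.054. The block called no member in RC minus SC, RA minus RC or the interaction, against 0.141%, 0% and 0.178% of all probe sets.

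**Figure D3:**
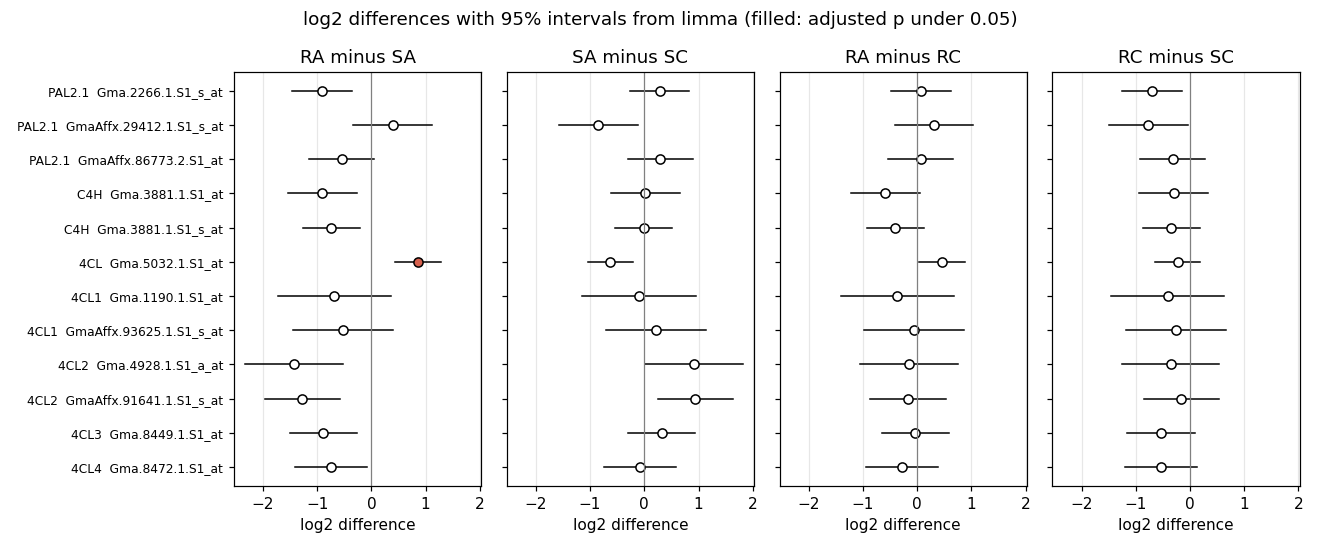
log2 differences (x axis) of the 12 probe sets (y axis) in RA minus SA, SA minus SC, RA minus RC and RC minus SC, with points for the estimate of the fit without a block and lines for its 95% interval. The filled point, 4CL in RA minus SA at 0.86, is the only one with a limma adjusted p under 0.05, and all 12 points in RC minus SC lie left of 0.

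Stricter and looser rules of the study were also applied. Its cutoffs (a fold of 2 or more with p no higher than 1e-04 and Storey's q no higher than 0.04) called no member in SA minus SC, RA minus RC, RC minus SC, RA minus SA or the interaction, against 1.03%, 0%, 0.0745%, 0.827% and 0.00532% of all probe sets. Its relaxed rule for pathways, a fold of 2 or more with an unadjusted p no higher than 0.05, called no member in SA minus SC, against 4.58%. In RA minus SA it called both 4CL2 probe sets lower, against 3.44% of all in that direction. In the interaction it called 3, namely 4CL and a PAL2.1 probe set below 0 and a 4CL2 probe set above 0, against 2.87%.

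Another 3 probe sets are assigned to several of these genes and are no members. GmaAffx.89508.1.A1_s_at, shared by PAL1.1, PAL1.2 and PAL1.3, read 8.71, 8.48 and 8.33 in RA, 10.19, 8.20 and 8.63 in RC, 10.51, 9.46 and 9.92 in SA, and 10.23, 9.86 and 7.49 in SC. Its RA arrays lay below its SA arrays, with a difference of -1.46 (SE 0.64, limma adjusted p = 0.3), and its SC arrays spread over most of the range. GmaAffx.93094.1.S1_s_at, shared by the same PAL genes, had -0.80 (SE 0.30, limma adjusted p = 0.21) in RA minus SA, and Gma.8449.1.S1_s_at, shared by 4CL4 and 4CL3, had -0.67 (SE 0.29, limma adjusted p = 0.3). None passed the test in any comparison, with or without the replicate block.

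A 4CL-like gene outside the named family moved more than any member. Glyma.11g198300, which the study's annotation calls similar to 4CL, was picked by the study on these same arrays, so its direction is not independent evidence. On Gma.7423.2.S1_a_at it read 5.37, 7.12 and 5.70 in RA, 4.92, 6.38 and 5.23 in RC, 9.79, 10.37 and 8.17 in SA, and 5.61, 5.78 and 5.06 in SC. It rose in SA over SC by 3.96 (SE 0.58, limma adjusted p = 0.0032) and was lower in RA than in SA by 3.38 on the log2 scale (a fold of 10.4, limma adjusted p = 0.0097). Most of the SC, RC and RA arrays lay near the control level, so the sizes of both differences depend on that floor.

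Later steps of the pathway were described through lists of gene symbols. The flavonoid stem (11 genes for chalcone synthase, reductase and isomerase, 29 probe sets) had 6 probe sets lower in RA than in SA, 4 of CHS1 and, named after their values were seen, 2 of CHS8. It had 4 higher in SA than in SC, all of CHS1. Over all probe sets 2.29% were called lower in RA minus SA and 2.51% higher in SA minus SC. With the replicate block the list had 8 lower in RA than in SA and 7 higher in SA than in SC, against 4.46% and 4.34% of all, and on the values as deposited 6 and 3. CHS1 is a chalcone synthase, the enzyme that uses the product of 4CL. On Gma.17605.3.S1_at it was lower in RA than in SA, by -2.33 (SE 0.43, limma adjusted p = 0.014), and rose in SA over SC by 2.60 (SE 0.43, limma adjusted p = 0.0062). In RA minus SA, CHS1 was not called on Gma.17605.1.S1_at (-0.61), Gma.17834.1.S1_at (0.19) or GmaAffx.82413.1.S1_at (0.07). Those probe sets were not called in SA minus SC either, at -0.06, -0.22 and 0.25. The median of this list was -0.61 in RA minus SA and 0.24 in SA minus SC, and several of its probe sets can bind more than 1 chalcone synthase gene.

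The isoflavonoid list (11 genes, 22 probe sets) had 2 probe sets lower in RA than in SA, against 2.29% of all, and none called in SA minus SC. Named after their values were seen, they were IFR, an isoflavone reductase (Gma.2686.1.S1_s_at, -2.71, SE 0.62, limma adjusted p = 0.038), and CYP81E11, a cytochrome P450 (GmaAffx.90945.1.S1_at, -1.89, SE 0.45, limma adjusted p = 0.043). The other IFR probe set, GmaAffx.90339.1.A1_at, had only -0.22 (SE 0.18, limma adjusted p = 0.65) in RA minus SA. The medians of the list were -0.37 in RA minus SA and 0.28 in SA minus SC. With the replicate block 6 passed in RA minus SA, all lower, and 2 in SA minus SC, both higher, against 4.46% and 4.34% of all. On the values as deposited 1 passed in RA minus SA.

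The flavonol, anthocyanin and proanthocyanidin list (8 genes, 10 probe sets) went the other way. Of its probe sets 5 were lower in SA than in SC, against 0.902% of all called lower and 2.51% called higher there, and 1 was higher in RA than in SA. F3H, flavanone 3-hydroxylase, accounted for 2 of the 5 and FLS1, flavonol synthase, for 2. On GmaAffx.70258.1.S1_s_at F3H was higher in RA than in SA by 0.98 (SE 0.23, limma adjusted p = 0.042) and fell by 1.80 in SA relative to SC (SE 0.23, limma adjusted p = 0.0019). On the values as deposited 1 of the 5 stayed called, and none did in RA minus SA. With the replicate block the list had the same count in SA minus SC, 2 higher in RA than in SA (F3H and, named after its values were seen, FLS1) and 1 below 0 in the interaction (F3H).

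A short list meant for the lignin and phenolic branch holds 3 symbols (CCR, DIR22 and PTS1, 4 probe sets). The annotation gives no description for them, so the list may not stand for lignin synthesis. It had no call in the fit without a block, and with the block 2 probe sets were lower in RA than in SA (CCR and DIR22) and 1 was higher in SA than in SC (DIR22), named after their values were seen. Its medians were -1.17 in RA minus SA and 0.51 in SA minus SC.

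**Figure D4:**
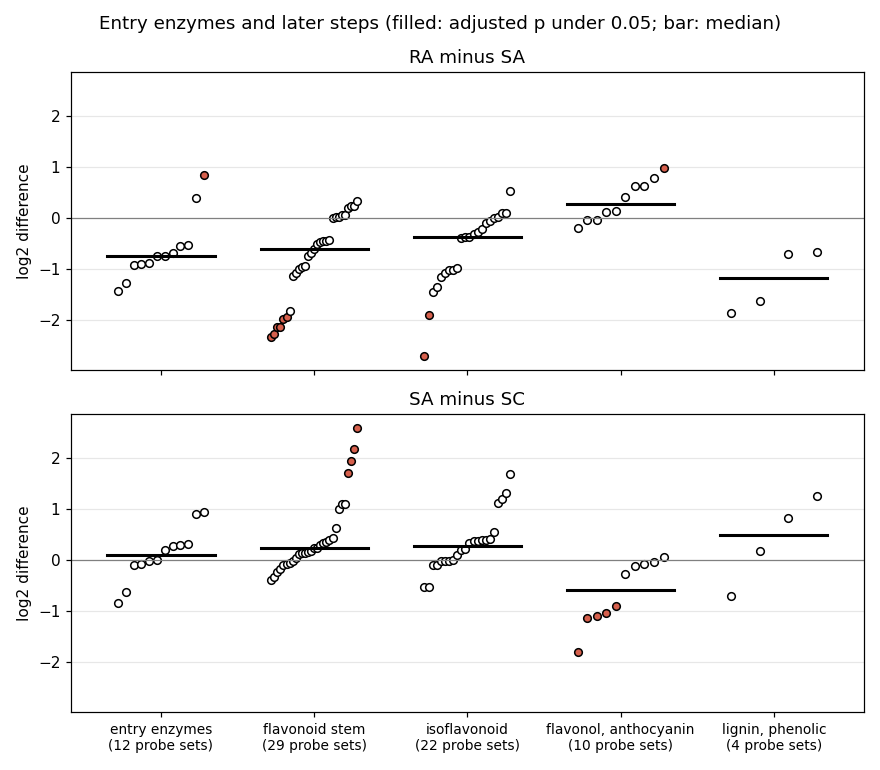
log2 differences (y axis) of every probe set in the entry enzymes and in 4 lists of later steps (x axis) in RA minus SA and SA minus SC, with the median of each list as a bar and filled points for a limma adjusted p under 0.05. In SA minus SC the filled points are 4 of the flavonoid stem above 0 and 5 of the flavonol and anthocyanin list below 0, and the entry enzymes have none.

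No list of later steps had a probe set called in RA minus RC, RC minus SC or the interaction in the fit without a block. In that fit the entry enzymes and the isoflavonoid list had calls in RA minus SA and none in SA minus SC, and with the replicate block both had calls in each. Whether the lists differ from the entry enzymes was not tested.

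The profiles most like the brightest probe set of each enzyme were looked up among 8665 other probe sets with a single gene, by Pearson correlation over the 12 arrays. For PAL2.1 they were LOC100305430 at 0.875, LOC100788151 at 0.869 and HSF-01 at 0.868. For C4H they were LOC100815629 at 0.893, HIDH, the dehydratase that completes isoflavone formation, at 0.818, and LOC100527163 at 0.815. For the 4CL family, through 4CL1, they were 3 probe sets of LOC100794600, at 0.94 to 0.951. These are the highest of many correlations over few arrays, and they describe likeness of profile only.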

How the data were processed

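Leaf RNA was hybridized to 12 arrays, 3 for each of 4 groups. The authors' Methods give GCRMA as the normalization, and the submitters' processing notes name RMA, GCRMA and limma without versions. The deposited values are log2 intensities per probe set. Raised as a power of 2, 99.6% of them gave whole numbers (within 1e-06 of the value), and array medians lay between 6.86 and 7.71. No scaling between arrays is therefore visible, and the 37593 soybean probe sets were quantile normalized here. The 60 control probe sets were left out. The table holds no columns of other samples, and depth is not defined for arrays, whose number limits the precision.

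All comparisons came from 1 limma 3.58.1 fit in R 4.3.3, with a mean per group over the 12 arrays and empirical Bayes moderation. Calls were made at an adjusted p under 0.05, by Benjamini-Hochberg over the 37593 probe sets. Tests are two-sided. Genes were named by the array's annotation, in which 8677 probe sets have 1 symbol, 370 several and 28546 none listed here, and all 7 member genes matched RefSeq symbols (Glycine_max_v4.0). Sequences and coordinates are not used here. Where nothing says that arrays of a group came from separate plantings, p-values measure the spread between pooled leaf samples.

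The members and all lists were chosen with earlier results of these data known. The text names every member, shared probe sets of the same families, up to 2 rises and 2 falls per list called in SA minus SC, and the 3 most alike profiles for the brightest probe set of each enzyme. Exceptions are stated. A list for phenylalanine supply could not be filled.

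Pairing by replicate number was checked through deviations from group means. Arrays of the same number correlated at 0.13 to 0.36 in SA minus SC, 0.29 to 0.48 in RC minus SC, 0.17 to 0.42 in RA minus SA and -0.12 to 0.49 in RA minus RC. Every such pair was above 0.1 in the first 3. Arrays of different numbers reached 0.2 in SA minus SC, 0.026 in RC minus SC, 0.049 in RA minus SA and 0.39 in RA minus RC. Same-number pairs thus exceeded all others only in RC minus SC and RA minus SA. In SA minus SC the 0.2 lay above same-number pairs at 0.13 and 0.15. Deviations within a group cancel, so these values are not independent and do not establish pairing. The authors' Methods describe a randomized complete block layout of the plants, and the array titles are numbered consecutively within each replicate number. Neither says that a replicate number stands for a block of plants. The replicate block spans all groups, including RA and RC, so its calls depend on a pairing that was not shown. That fit is given as an alternative, beside the members and lists whose calls it changes.

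Alternatives were the values as deposited, median centering, removal of probe sets under the median level, inclusion of the controls, the block, only the arrays compared, trend and robust moderation, no moderation, the study's thresholds, each array left out in turn and, chosen after seeing the data, normexp background correction with an offset of 50. On data simulated for SA minus SC over 37593 probe sets, 56% of 100 differences of size 1 and 94% of 100 of size 2 were recovered, with 5 false calls.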

Additional observations from a re-analysis of the deposited data

How the results depend on the processing

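The count of members called in RA minus SA was 1 in the reported fit. It was 7 with the replicate block, 2 with trend and robust moderation, where 4CL2 came just under 0.05, and 2 under the study's relaxed rule. It was 0 under the study's cutoffs, on the values as deposited, with the filter at the median level, which left 8 members and removed 4CL, and without moderation. Leaving out 1 array gave 0 to 2. Among all soybean probe sets, 1126 were called in RA minus SA, 2383 with the block and 1051 with trend and robust moderation. On the values as deposited 471 were called, with the filter 616 of 18797 and without moderation 167. Leaving out 1 array gave 313 to 1646 such calls. In SA minus SC the count of members was 0, against 2 with the replicate block and 0 to 1 with 1 array left out. All soybean probe sets had 1284 calls there, 2468 with the block and 457 to 1887 with 1 array left out. In the interaction no member was called, against 3 under the relaxed rule, which adjusts for nothing. RA minus RC and RC minus SC had 0 members called throughout. Median centering, all probe sets, only the arrays compared and normexp are covered below where they changed a call. No called value changed its sign.

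4CL in RA minus SA kept its direction in all fits, between 0.68 with normexp and 0.98 without the second RA array, and besides the losses given above it lost its call with only the arrays compared (limma adjusted p = 0.053) and without moderation (0.11). 4CL2 in RA minus SA passed on its _s_at probe set without SA2 (0.018), SC1 (0.039) or SC3 (0.037), and on its _a_at probe set with only the arrays compared (0.047). PAL2.1 on its brighter _s_at probe set passed without SA3 (0.041) or RC1 (0.046). The cause was not tested. Of the 12 differences in each comparison, 5 changed sign under at least 1 alternative in SA minus SC, 7 in RA minus RC, 5 in the interaction, 3 in RC minus SC and 0 in RA minus SA. Among the members the block changed no call beyond those given.

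With 3 arrays a group, the intervals of most members include 0 in every comparison but RA minus SA, and they reach toward a 2-fold difference. A p above the threshold therefore does not show equal levels. In RA minus SA the intervals of 1 higher and 7 lower members exclude 0, but only 4CL passed after adjustment in the fit without a block. Near the control level an intensity change can understate the change in transcript. By group 4CL lay 0.91 to 1.74 above that level, 4CL4 1.06 to 1.91, and 4CL2 outside SA 0.89 to 1.72. In SA the 4CL2 probe sets lay 2.64 and 2.20 above it.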
